A study of Mus musculus with 6 samples.

Results

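The 9 genes described here encode the receptors for type I and type II interferon and the first signalling proteins behind them. They are Ifnar1, Ifnar2, Ifngr1, Ifngr2, Jak1, Jak2, Tyk2, Stat2 and Socs1, chosen by symbol from the 53801 genes of the deposited tables, and each symbol matched 1 row. The RNA came from 3 groups of CT26, a mouse colon carcinoma line of Balb/c origin, with 2 libraries (replicates A and B) in each group. The parental group is bulk, barcoded CT26 that had been recovered from tumors. B04 and B64 are lines grown from single cells of engrafted tumors, carry different barcodes, and were reported to resist immune checkpoint blockade. Each clone is a single line, so a difference tied to resistance and one between any single-cell line and the bulk cannot be told apart. The sample titles speak of tumors, but according to the methods the RNA was taken from cells in culture. No label says that replicates came from separate cultures, so p-values measure only the spread between these libraries, which may be technical.

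Interferons act by joining receptor chains on the cell surface. IFNAR1 and IFNAR2 bind type I interferons and carry the kinases TYK2 and JAK1, whereas IFNGR1 and IFNGR2 bind interferon gamma and carry JAK1 and JAK2. The kinases phosphorylate STAT proteins. STAT2 joins a partner STAT and IRF9 in the complex ISGF3, which binds the interferon-stimulated response element (ISRE), while interferon gamma acts mainly through the gamma-activated site (GAS). SOCS1 is induced by the pathway and inhibits the kinases. In tumor cells the pathway is known for raising antigen presentation and for loss of function in some tumors that escape T cells.

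The libraries held 19409204 to 23472012 expected counts. The estimated fragment length, read as RSEM length minus effective length, was 271.7 to 277.2 bases in both parental libraries and B04 replicate A. It was 220.8 to 246.1 bases in B04 replicate B and both B64 libraries, so fragment length moved in part with the line. The summed level of 8 leukocyte markers was 10.46 to 12.16 TPM in parental and B04 libraries and 36.64 to 40.22 TPM in B64. Fewer cells of a type and less RNA per cell cannot be told apart in such bulk libraries. Nearly all of the sum was Cd68, while Ptprc, which marks all leukocytes, reached at most 0.01 TPM, and Cd3e and Nkg7 were at 0. Of the epithelial markers, Epcam and Cdh1 reached at most 0.06 TPM and Vil1 was at 0, whereas Krt18 lay between 12.31 and 22.44 TPM.

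The promoters of the members are shown first because Stat2 and Socs1 are themselves known interferon targets. RefSeq windows on GRCm38.p6 were found for all 9 members and span 250 bases before to 50 bases after the start. The bases before the start are printed 5′ to 3′ on the gene's strand for Stat2 and Jak2, the members that differed between lines, for Socs1, which holds the ISRE letters, and for Ifnar2, which holds the GAS letters. Capitals mark the matches to the ISRE core (GAAA, then NN, then GAAA, where N is any base) or the GAS core (TTC, then NNN, then GAA), searched on both strands. A stretch of the promoter of Isg15, a classical ISGF3 target, stands beside them.
Stat2, chr10:128270248-128270497, plus strand: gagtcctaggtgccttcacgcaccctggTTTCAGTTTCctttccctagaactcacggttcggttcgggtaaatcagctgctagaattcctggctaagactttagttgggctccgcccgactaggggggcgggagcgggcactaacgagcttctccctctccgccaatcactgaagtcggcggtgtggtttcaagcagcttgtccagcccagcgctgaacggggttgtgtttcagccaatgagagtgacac
Socs1, chr16:10785537-10785786, minus strand: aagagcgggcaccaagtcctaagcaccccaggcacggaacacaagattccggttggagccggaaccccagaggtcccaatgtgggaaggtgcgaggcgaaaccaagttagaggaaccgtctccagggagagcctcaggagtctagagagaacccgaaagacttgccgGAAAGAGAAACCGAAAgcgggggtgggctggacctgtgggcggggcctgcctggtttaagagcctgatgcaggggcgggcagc
Jak2, chr19:29251553-29251802, plus strand: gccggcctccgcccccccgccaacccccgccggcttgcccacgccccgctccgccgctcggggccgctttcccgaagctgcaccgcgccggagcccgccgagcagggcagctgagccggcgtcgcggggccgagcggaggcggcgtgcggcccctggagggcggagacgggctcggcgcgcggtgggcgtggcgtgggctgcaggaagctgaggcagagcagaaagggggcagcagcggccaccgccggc
Ifnar2, chr16:91372533-91372782, plus strand: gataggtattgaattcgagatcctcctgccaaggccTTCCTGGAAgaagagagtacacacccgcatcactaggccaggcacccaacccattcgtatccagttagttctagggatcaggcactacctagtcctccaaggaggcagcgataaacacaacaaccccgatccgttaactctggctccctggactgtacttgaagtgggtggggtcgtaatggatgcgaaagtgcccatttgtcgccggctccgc
Isg15, chr4:156200865-156200906, minus strand: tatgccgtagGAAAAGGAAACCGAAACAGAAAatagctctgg

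The Stat2 match lay at bases -222 to -213, counted from the RefSeq start with negative numbers upstream, and reads as the ISRE core on the opposite strand. That start is 61 bases upstream of the GENCODE M21 start of Stat2. Socs1 held 2 overlapping ISRE matches from base -83 to base -68, and Isg15 held 3 overlapping ones from base -78 to base -57. The GAS core was found in Ifnar2, at bases -214 to -206, and in Ifnar1, where it spans the start from base -5 to base 4. Neither core was found in the windows of Ifngr1, Ifngr2, Jak1, Jak2 and Tyk2. Of all 32851 promoter windows, 3.44% held the ISRE core and 8.3% held the GAS core. Among 13 genes with a window from a list of ISGF3-type interferon targets, 6 (46.2%) held the ISRE core. A match describes letters only, and binding was not measured. Stat2 and Socs1 thus share the ISRE letters. As given below, Stat2 passed the test in both comparisons with B64 and Socs1 passed none. Whether their patterns over the lines differ from each other was not tested.

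**Figure D1:**
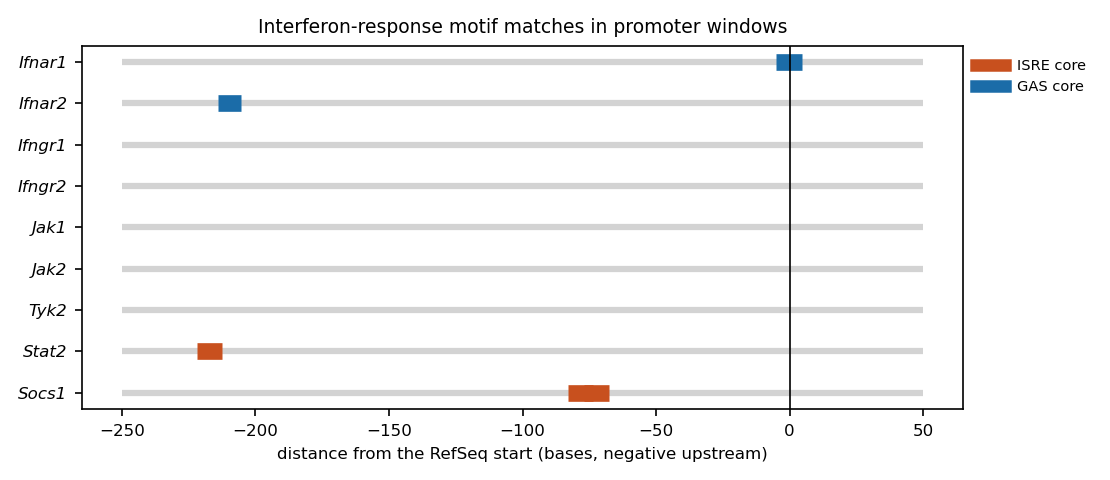
Matches to the ISRE core (orange) and the GAS core (blue) in the promoter windows of the 9 genes, by distance in bases from the RefSeq start, where grey bars are the windows. Stat2 and Socs1 hold the ISRE core, Ifnar1 and Ifnar2 the GAS core, and the other genes neither.

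All 9 genes were expressed in all 6 libraries. On the TPM scale, which accounts for transcript length, Ifnar2 was highest with a mean of 31.8 over the 6 libraries, followed by Jak1 at 25.24. Next came Jak2 at 16.19, Stat2 at 14.14, Ifnar1 at 13.76, Ifngr1 at 10.54 and Ifngr2 at 8.28. Tyk2 followed at 5.86 and Socs1 was lowest at 3.02. The ranges over the 6 libraries overlapped for Jak2 and Stat2, for Stat2 and Ifnar1, for Ifnar1 and Ifngr1, and for Ifngr1 and Ifngr2. Within each library, however, Ifnar1 was above Ifngr1 and Ifngr1 above Ifngr2 in all 6. The place of Stat2 depended on the line. Its mean TPM was above that of Jak2 in B64 (19.94 against 17.94), below that of Ifnar1 in the parental line (12.06 against 12.98), and below those of Ifnar1 (13.07) and Ifngr1 (11.66) in B04, where it was 10.42. The type I receptor chain Ifnar2 had a higher TPM than its partner Ifnar1 in every library. The order of the means over 6 libraries was the same by normalised count per kilobase, which rests on the same RSEM lengths and is no separate check. By normalised count without division by length, Ifnar1 was above Ifnar2 in every library (means over all libraries 928.6 and 721.7).

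Stat2 (chr10, 128270559 to 128292849, plus strand), the STAT factor of ISGF3, was the member that differed most between the lines. Its normalised count, the expected count divided by the library's size factor, was 750.8 (A) and 650.9 (B) for the parental line, 588.3 and 593.4 for B04, and 1040.9 and 953.6 for B64. Both B64 libraries lay above all others, and both B04 libraries lay below both parental ones. Stat2 was 1.42-fold higher in B64 than in the parental line (log2 fold change 0.51, SE 0.12, DESeq2 adjusted p = 0.00038). Set against B04, it was 1.69-fold higher in B64, a log2 difference of 0.75 (SE 0.12) with a DESeq2 adjusted p of 1.24e-08. Between B04 and the parental line the log2 fold change was -0.25 (SE 0.12, DESeq2 adjusted p = 0.141), which did not pass the threshold of 0.05. The B64 difference from the parental line missed the threshold without B64 replicate A (log2 fold change 0.45, DESeq2 adjusted p = 0.0887) and without parental replicate B (0.41, adjusted p = 0.0727).

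With the fragment-length class as a block, the Stat2 log2 fold change of B64 over the parental line was 0.50 (SE 0.25) with a DESeq2 adjusted p of 0.558. The estimate was close to the one without the block and less precise. No parental library belonged to the class of shorter fragments and no B64 library to the class of longer ones, so this comparison has no value within a class and rests on B04, which had 1 library in each. Within the shorter class, the mean of the B64 libraries was 0.75 above B04 replicate B on the log2 scale, and within the longer class B04 replicate A was at -0.25 relative to the parental mean. Both values equal the estimates over all libraries, which follows from the nearly equal Stat2 counts of the B04 libraries (588.3 and 593.4). The equality is therefore no separate test of fragment length.

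The length that RSEM assigned to Stat2, which is weighted by the isoforms it infers, also differed. Parental replicates A and B had 3307.38 and 3115.45 bases, the B04 replicates 3259.01 and 3299.76, and the B64 replicates 2918.22 and 2790.94. The B64 lengths lay below those of the other libraries, B04 replicate B among them, which shares the shorter fragments. In the comparisons with B64, Stat2 therefore differed more in TPM than in counts, with 12.06 ± 1.03 TPM in the parental line, 10.42 ± 0.05 in B04 and 19.94 ± 0.72 in B64 (SD, n = 2). Whether isoform use differed was not tested.

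**Figure D2:**
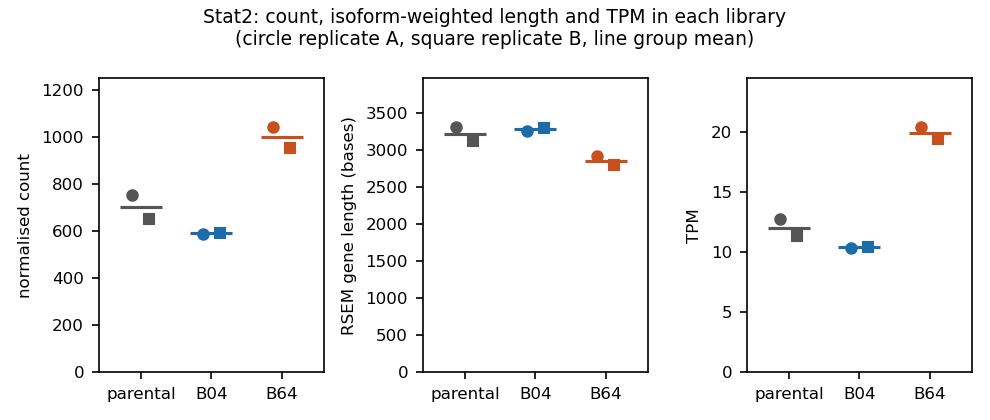
Stat2 in each library as normalised count (left), RSEM gene length in bases (middle) and TPM (right), with circles for replicate A, squares for replicate B and lines for group means. B64 was highest in count and TPM, and its lengths of 2918.22 and 2790.94 bases were the shortest.

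Jak2 (chr19, 29251828 to 29313080, plus strand), the kinase bound to IFNGR2, differed between the clones. Its normalised counts were 1543.5 and 1421.6 for the parental line, 1408.2 and 1252.0 for B04, and 1639.0 and 1644.3 for B64. The groups did not overlap, with the parental libraries between the clones. Jak2 was 1.23-fold higher in B64 than in B04, a log2 difference of 0.30 (SE 0.09) with a DESeq2 adjusted p of 0.00808. The log2 fold changes against the parental line were -0.16 (SE 0.09, DESeq2 adjusted p = 0.255) in B04 and 0.15 (SE 0.09, DESeq2 adjusted p = 0.342) in B64. The difference between the clones missed the threshold without B04 replicate B (log2 fold change 0.22, DESeq2 adjusted p = 0.238), without B64 replicate A (0.31, adjusted p = 0.111) or without B64 replicate B (0.30, adjusted p = 0.12). In the last 2 fits the difference was as large as over all libraries and its SE was 0.13. Within the shorter-fragment class it was 0.39 on the log2 scale, a value that rests on B04 replicate B alone, the lower of the B04 libraries. Within the longer class, B04 replicate A was at -0.07 relative to the parental mean.

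Jak1 (chr4, 101152367 to 101265282, minus strand), the kinase that both receptors share, had the most reads of the 9 genes. Its normalised counts were 2029.0 and 1981.8 in the parental line, 2102.3 and 2131.4 in B04, and 2218.9 and 2168.9 in B64. The groups did not overlap, but the log2 differences were small, at 0.08 (95% interval -0.07 to 0.23) for B04 and 0.13 (-0.02 to 0.28) for B64 against the parental line. Neither passed the test (DESeq2 adjusted p = 0.545 and 0.284). Tyk2 (chr9, 21104068 to 21131243, minus strand), the kinase bound to IFNAR1, had normalised counts of 468.4 and 404.0, then 484.3 and 433.6, then 538.0 and 516.2 in the same order. Both B64 libraries were above the other 4, with a log2 fold change of 0.27 (-0.02 to 0.56) over the parental line (DESeq2 adjusted p = 0.228).

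Ifnar2, Ifnar1 and Ifngr2 lie together on chromosome 16 with Il10rb, a chain of the interleukin-10 and lambda interferon receptors, within 192.8 kb (91372783 to 91565623, plus strand). Normalised counts of Ifnar1 were 955.9 and 846.4 in the parental line, 835.4 and 892.7 in B04, and 989.9 and 1051.4 in B64. Both B64 libraries were above the other 4. The log2 difference between B64 and B04 was 0.24 (95% interval 0.02 to 0.46) with a DESeq2 adjusted p of 0.103, whereas edgeR's quasi-likelihood test gave an adjusted p of 0.042. Against the parental line it was 0.18 (-0.04 to 0.40, DESeq2 adjusted p = 0.317) in B64 and -0.06 (-0.28 to 0.16, adjusted p = 0.786) in B04.

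Ifnar2, the chain that binds type I interferon most tightly, had normalised counts of 726.9 and 689.3 in the parental line, 716.0 and 704.4 in B04, and 784.9 and 708.6 in B64. The groups overlapped in each comparison with the parental line. The log2 difference from the parental line was 0.00 (-0.23 to 0.24, DESeq2 adjusted p = 0.988) in B04 and 0.08 (-0.16 to 0.31, adjusted p = 0.778) in B64. Il10rb, in the same cluster, had log2 differences of 0.13 and 0.17 from the parental line (DESeq2 adjusted p = 0.715 and 0.639).

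Ifngr2, the signalling chain of the interferon gamma receptor, had normalised counts of 374.9 and 340.4 in the parental line, 358.4 and 396.0 in B04, and 384.0 and 357.5 in B64. The 3 lines overlapped. Its log2 difference from the parental line was 0.08 (-0.24 to 0.39, DESeq2 adjusted p = 0.821) in B04 and 0.05 (-0.26 to 0.37, adjusted p = 0.903) in B64. Ifngr1 (chr10, 19591949 to 19610229, plus strand), the ligand-binding chain, had normalised counts of 371.1 and 333.0, then 340.2 and 355.2, then 285.4 and 309.1. Both B64 libraries were below the other 4, and the log2 difference from the parental line was -0.24 (-0.57 to 0.09, DESeq2 adjusted p = 0.393).

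Socs1 (chr16, 10782240 to 10785536, minus strand), the feedback inhibitor, had the fewest reads. Normalised counts were 134.5 and 140.3 in the parental line, 166.9 and 155.7 in B04, and 135.9 and 163.0 in B64. B04 lay above the parental line, while B64 overlapped both. The log2 difference from the parental line was 0.23 (-0.24 to 0.71, DESeq2 adjusted p = 0.581) in B04 and 0.12 (-0.36 to 0.60, adjusted p = 0.832) in B64. These intervals are the widest of the 9 genes. The values not yet given were Tyk2 at 0.07 and Ifngr1 at -0.02 in B04 against the parental line (DESeq2 adjusted p = 0.807 and 0.965). In B64 against B04 the log2 differences were 0.07 for Ifnar2, -0.23 for Ifngr1, -0.02 for Ifngr2, 0.05 for Jak1, 0.20 for Tyk2 and -0.11 for Socs1 (smallest DESeq2 adjusted p 0.379).

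**Figure D3:**
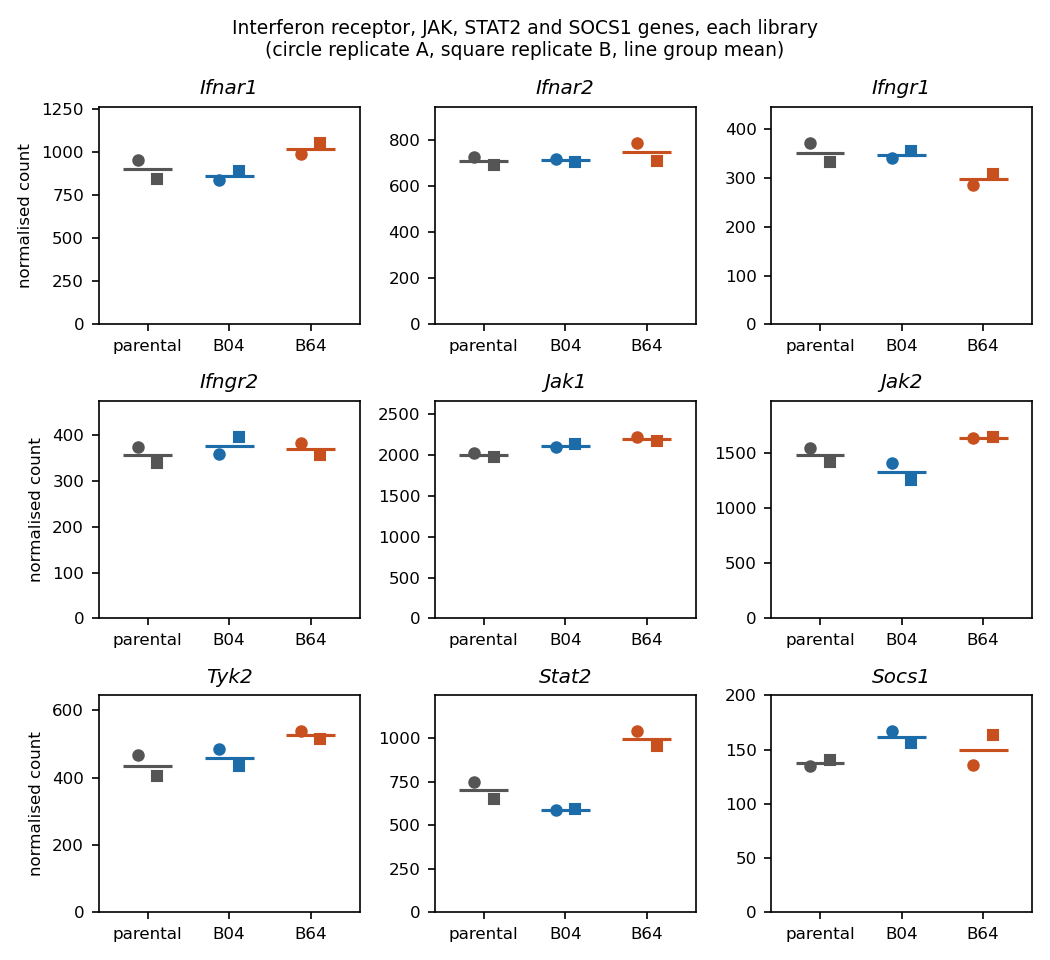
Normalised counts of the 9 genes in each library, with circles for replicate A, squares for replicate B and lines for group means, on axes that start at 0. Stat2 reached 1040.9 and 953.6 in B64 against at most 750.8 elsewhere, and most other genes lay at similar heights in the 3 lines.

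Of the 9 genes, 0 passed the DESeq2 threshold between B04 and the parental line, where 24.1% of 13218 tested genes did. At an unadjusted p under 0.05 there was 1, Stat2, and edgeR called 0. Between B64 and the parental line 1 of 9 passed (Stat2), beside 16.3% of all tested genes. Between B64 and B04 2 of 9 passed (Stat2 and Jak2), beside 24.3% of 12855 tested genes, which is close to that background. The groups did not overlap for 4, 6 and 6 of the 9 genes in the same order, beside 65.0%, 61.4% and 67.1% of all tested genes, so separation of 2 libraries from 2 was common. The median log2 fold change of the 9 genes was 0.00, 0.13 and 0.07, against 0.00 for all tested genes in each comparison. The comparisons share libraries and are not independent of each other.

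**Figure D4:**
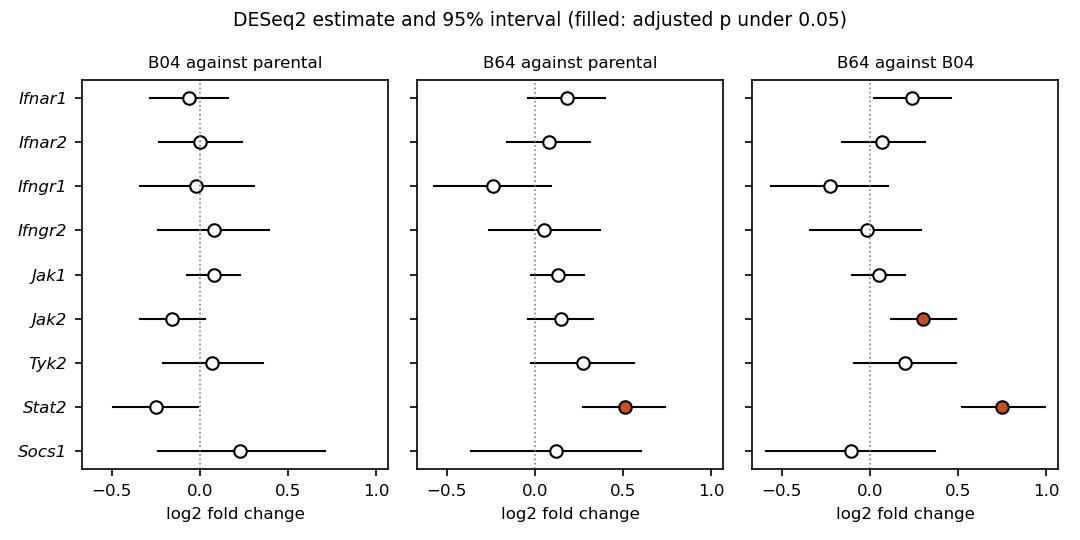
DESeq2 log2 fold changes of the 9 genes with 95% intervals in the 3 comparisons, where filled points have an adjusted p under 0.05. Stat2 is filled in both comparisons with B64, Jak2 in B64 against B04, and none in B04 against the parental line.

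The ligands were at or near 0. Of 20 interferon genes, 19 had no count in any library, and Ifnb1, encoding interferon beta, had 1 count in each B64 library, so no fold is given. A count of 0 allows up to 3 counts, a limit that covers counting error only.

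The listed genes downstream of ISGF3 were called in larger shares than the 9 genes, a contrast that was not tested. Of 20 listed targets, all tested, 10 fell and 0 rose in B04 against the parental line (median log2 fold change -0.39), while 16 rose and 0 fell in B64 (median 0.69). Between B64 and B04 18 were higher and 0 lower (median 1.13). Over all tested genes, 24.1%, 16.3% and 24.3% were called in these comparisons, in either direction. The counts of this list and of those below were not repeated with the fragment-length class as a block. No parental library shared its class with a B64 library. Irf7, which amplifies interferon production, had normalised counts of 1194.3 and 1217.7 in the parental line, 959.5 and 853.0 in B04, and 2892.8 and 2695.7 in B64. Its log2 fold change was -0.41 in B04 (DESeq2 adjusted p = 0.000139) and 1.21 in B64 (adjusted p = 1.89e-38). Stat2 had the same order of the 3 lines, with a smaller difference between B64 and the parental line. Bst2, which tethers virus particles, changed by -0.24 and 0.70, and Isg15, a ubiquitin-like modifier, by -0.67 and 0.52 (largest DESeq2 adjusted p of the 4 values 0.000225). Cd68 was higher in B64 as well, and its part in these values was not tested.

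The genes listed as targets of interferon gamma did not follow one direction in B04. Of 14 tested of 16 listed, 5 rose and 1 fell in B04 (median 0.23), and 10 rose and 0 fell in B64 (median 0.80). Of 13 tested between B64 and B04, 7 were higher and 2 lower (median 0.52). The shares called over all tested genes were again 24.1%, 16.3% and 24.3%. Which interferon, if any, lay behind the values of this list or of the ISGF3 list was not tested. The immunoproteasome subunits Psmb8 and Psmb9 rose in both clones, by 1.39 and 1.42 in B04 and by 0.90 and 1.30 in B64 on the log2 scale (largest DESeq2 adjusted p 6.87e-07). The guanylate-binding proteins Gbp7 and Gbp3 rose in B64 by 1.08 and 1.01 (DESeq2 adjusted p = 1.42e-09 and 1.04e-07), whereas their values in B04 were 0.33 and -0.04 (adjusted p = 0.148 and 0.919).

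Of 17 negative regulators 16 were tested, and 2 rose and 4 fell in B04, 2 rose and 3 fell in B64, and 4 were higher and 1 lower in B64 against B04 (medians -0.14, -0.02 and 0.06). These counts stand beside 24.1%, 16.3% and 24.3% of all tested genes and were not tested against those shares. Usp18, which displaces JAK1 from IFNAR2 and is also one of the 20 ISGF3 targets, had normalised counts of 1699.9 and 1662.9 in the parental line, 842.7 and 674.9 in B04, and 2666.3 and 2282.5 in B64. It fell by 1.15 on the log2 scale in B04 (DESeq2 adjusted p = 6.36e-23) and rose by 0.56 in B64 (adjusted p = 5.08e-06). The phosphatase gene Ptpn6 rose in both clones, by 0.60 and 0.84 (DESeq2 adjusted p = 0.000283 and 1.61e-07). Sh2b3, an adaptor that restrains JAK2, changed by -0.30 in B04 and -0.42 in B64 (DESeq2 adjusted p = 0.00609 and 7.95e-05). Socs6 changed by -0.28 in B04 (DESeq2 adjusted p = 0.0139), with 0.20 in B64 (adjusted p = 0.125).

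Of 7 other STAT and JAK genes 6 were tested, with 0 rising and 2 falling in B04, 1 rising and 0 falling in B64, and 2 higher and 0 lower in B64 against B04 (medians -0.14, -0.02 and 0.12). Stat3, which serves the interleukin-6 family, was 0.49 higher in B64 than in B04 (DESeq2 adjusted p = 5.33e-05), and Stat6, which serves interleukin-4, changed by -0.20 in B04 (adjusted p = 0.0207). Of 35 other cytokine receptor chains that use JAK kinases 16 were tested, with 4 rising and 1 falling in B04, 1 and 2 in B64, and 0 and 3 between B64 and B04 (medians 0.16, 0.01 and -0.11). For both lists the shares over all tested genes were 24.1%, 16.3% and 24.3%, and no list was tested against them. Il2rg, the common gamma chain, had normalised counts of 269.0 and 258.1 in the parental line, 591.0 and 549.7 in B04, and 5.7 and 10.5 in B64. It rose by 1.11 in B04 (DESeq2 adjusted p = 1.18e-08) and changed by -5.01 in B64 (adjusted p = 1.14e-31). Il6st, the shared interleukin-6 chain, rose by 0.35 in B04 (DESeq2 adjusted p = 0.000108), and Il6ra rose by 0.43 and 0.65 in the clones (adjusted p = 0.0336 and 0.000675). Il15ra had 1 and 2 expected counts in the B64 libraries and 13 to 29 in the others.

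**Figure D5:**
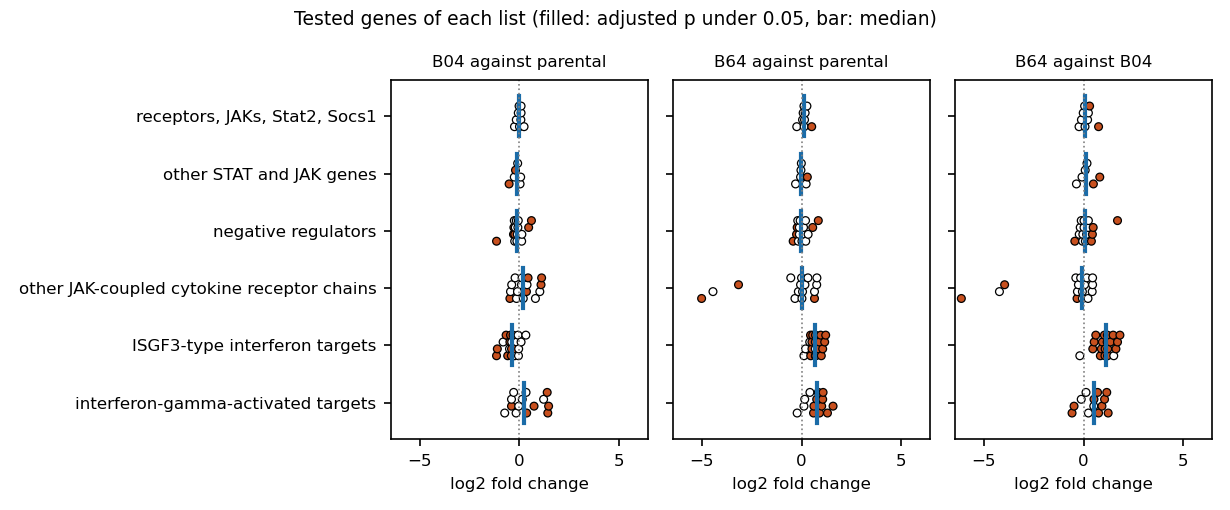
DESeq2 log2 fold changes of tested genes in the 9-gene group and in 5 pathway lists, where filled points have an adjusted p under 0.05 and blue bars are medians. The ISGF3-type targets shift to a median of -0.39 in B04 and 0.69 in B64 against the parental line, and the medians of the 9 genes are 0.00 and 0.13, with Stat2 at 0.51 in B64. The difference between the groups of genes was not tested.

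The genes whose normalised counts most resembled those of Stat2 over the 6 libraries, among 9877 genes, were Igtp (Pearson's r = 0.9985), an interferon-inducible GTPase, Trim25 (0.9955), a ubiquitin ligase of antiviral sensing, and Aebp1 (0.9952). For Jak2 they were Lgals8 (0.9994), Etnk1 (0.9948) and Zfp984 (0.9942). Above 0.95 lay 230 of the 9877 genes for Stat2 and 85 for Jak2, over 6 libraries that share 3 lines. The named genes were thus not the only close ones, and Pearson's r takes no account of the size of a difference. Of the nearest tested protein-coding genes beside Stat2, Timeless, 17618 bases away, was 0.78 higher in B04 than in the parental line (DESeq2 adjusted p = 3.21e-14) and at -0.19 in B64 (adjusted p = 0.209). Spryd4 was at -0.58 in B04 and -0.49 in B64 (DESeq2 adjusted p = 0.00761 and 0.0394). Of the 4 neighbours of Stat2, 3 passed the test in B04 against the parental line, 1 in B64 against the parental line and 1 in B64 against B04. Among all tested genes 24.1%, 16.3% and 24.3% passed. None of the 4 neighbours of Jak2 passed the test in any comparison. Genes that overlap members reached at most 4 expected counts in any library.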

How the data were processed

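Poly(A) RNA of 6 libraries was sequenced in pairs. The authors aligned reads to mm10 with STAR and quantified genes with RSEM (the annotation release is not given in the sources used here). The deposited tables hold expected counts, in which RSEM divides ambiguous reads among genes. They also hold TPM, already corrected by the authors for effective length and library total, and the RSEM lengths in bases. The deposited FPKM were not used here. Of 53801 identifiers, 99.7% matched a symbol, and coordinates are from GENCODE M21 on GRCm38.

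Expected counts were rounded and fitted with DESeq2 1.42.0 (R 4.3.3) over all 6 libraries with line as the only term, a Wald test, independent filtering, no shrinkage and a Benjamini-Hochberg adjusted p under 0.05. Alternatives were edgeR 4.0.16, limma 3.58.1 on log2(TPM + 1), other filters and scalings, blocks and left-out libraries. Both count tests were tested on simulated counts, and most planted changes were recovered. The planted changes were larger than any estimated for the 9 genes, so recovery of smaller changes like theirs was not tested. With each gene's own dispersion, mean false calls ran above the nominal share, more so for edgeR and mostly among genes with outlying dispersion. With dispersions set to the trend, DESeq2 was below that share and edgeR stayed slightly above it. The dispersions of the 9 genes were 0.83 to 1.04 times the trend. These are the final DESeq2 values, already drawn towards the trend in fitting, so their nearness to it is partly built in.

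Named list genes are up to 4 per list with the smallest adjusted p in any comparison, list genes beside a member, the 3 genes most like a called member among those with a mean normalised count of at least 100, and neighbours. Ifnb1 was named after its values were seen. The rule was not followed for 1 gene of the STAT and JAK list, which met it and is not reported here singly, though it stays in that list's counts. The 9 genes and the lists were chosen with earlier results of these data known. Libraries of a line differed beyond counting noise (chi-square per degree of freedom 5.09 to 6.81), so none was taken for a repeat deposit.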

Additional observations from a re-analysis of the deposited data

Results flagged for a closer look

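The effects of the clones relative to the parental line differed for 2 of the 9 genes, by the direct test of B64 against B04, beside 24.3% of all 12855 tested genes, so the count is close to the background. The log2 difference was 0.75 for Stat2 (DESeq2 adjusted p = 1.24e-08) and 0.30 for Jak2 (DESeq2 adjusted p = 0.00808), and for both genes the B64 libraries were above both B04 libraries.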

How the results depend on the processing

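Over 17 alternatives, Stat2 was past the threshold in 17 for B64 against B04 (log2 fold change 0.69 to 0.97) and in 14 for B64 against the parental line (0.41 to 0.72), and Jak2 in 11 for B64 against B04 (0.22 to 0.39). Counts of called genes are given in the order B04 against parental, B64 against parental, B64 against B04, beside 3181, 2157 and 3118. With the fragment-length class as a block they were 1596, 340 and 1625, and 0 of the 9 genes was called in B64 against parental. With limma they were 1999 and 1287 (first 2 comparisons) on log2(TPM + 1), 1986, 1242 and 2051 on log2(TPM + 0.1), and 1323, 715 and 1382 without a filter, and each called 1 of the 9 genes in B64 against B04. Leaving out each library in turn gave 1755 to 2577, 988 to 1772 and 1696 to 2758 genes, and 0 to 1 (B64 against parental) and 1 to 2 (B64 against B04) of the 9. Where a library is left out, the lone one is assumed to vary like the other groups. Where a call was lost, the cause was not tested.

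Replicate letters were not shown to pair the samples (same-letter correlations 0.16, 0.16 and -0.05). With the letter as a replicate block, 2655, 1716 and 2638 genes and 0, 1 and 2 of the 9 genes were called.

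Sign changes were seen in values near 0 that did not pass the test. In B04 against parental, Ifnar1 was 0.01 in the 3 limma fits and -0.15 to 0.03 with libraries left out. Ifngr1 was 0.07 with effective lengths as an offset, 0.15 with pseudocount 0.1, 0.14 in the other limma fits and -0.10 to 0.06 with libraries left out. With libraries left out, Ifnar2 was -0.04 to 0.04 and Tyk2 -0.03 to 0.18. In B64 against parental, Ifngr2 was -0.16 with the offset, -0.09 with the class block, -0.12 with pseudocount 0.1 and -0.11 in the other limma fits, and with libraries left out it was -0.02 to 0.12 and Socs1 -0.02 to 0.25. In B64 against B04, Jak1 was -0.03 with pseudocount 0.1 and -0.02 in the other limma fits. With libraries left out, Ifnar2 was 0.00 to 0.14, Ifngr2 -0.09 to 0.05 and Socs1 -0.25 to 0.02 there.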
